A study of Homo sapiens with 28 samples.

Results

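The chromosome 19 zinc finger genes described here are the protein-coding genes of chromosome 19 whose symbol is ZNF followed by a number and at most 1 letter. There are 246 of them among 19821 protein-coding genes of chromosomes 1 to 22 and X in RefSeq (GRCh38 patch 14), beside 1164 other protein-coding genes of chromosome 19 and 263 ZNF genes of other chromosomes. The name chose them, not a measurement and not the presence of a KRAB domain. H3K36me2, H3K27me3 and H3K27ac had been mapped by ChIPmentation, an immunoprecipitation in which a transposase adds sequencing adapters to the precipitated chromatin. The cells were TKO cells, which derive from the myeloma line KMS-11 and carry the labels plasma cell and WHSC1(+/-), WHSC1 being an older name of NSD2. TKO cells were compared with TKO cells that express wild type NSD2 (WT) or its mutant forms D1240A or F1295A, so all 4 conditions share that genotype. How much NSD2 each line made, and whether a line was 1 clone, is not given in the sources used here. The series asks about the C-terminal part of NSD2 in myeloma.

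Each condition and mark had 2 replicates, but the deposited data are 12 peak lists, 1 for each condition and mark, called on both replicates pooled. A list therefore has no replicate error, no significance test was possible, and every difference below is a description of these lists. Where a list holds no peak, the gene is given as listed at 0, and its true level may be anywhere under the limit of the list. Intervals in brackets are exact Poisson intervals at 95% and cover counting error only.

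Most ZNF proteins of chromosome 19 carry an array of zinc fingers that reads DNA, and many of them also carry a KRAB domain. The KRAB domain binds TRIM28, which brings SETDB1, HP1 proteins and DNA methyltransferases to silence retroelements. The genes arose by tandem duplication and lie in clusters. H3K27ac marks active promoters and enhancers, H3K36me2 is the product of NSD2, and H3K27me3 is placed by Polycomb enzymes. In many cell types the 3-prime exons of KRAB zinc finger genes are known to carry H3K9me3 and H3K36me3, marks that were not mapped here.

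The lists rest on 31097592 to 73613753 fragments kept after duplicates, which made up 61% to 87% of the fragments sequenced. The H3K36me2 lists hold 119446 peaks in TKO and 72582 in WT, and 99096 in D1240A and 116725 in F1295A. The plasma cell label was set against markers: H3K27ac lay at the ends of 9 of 12 plasma cell genes in all 4 lists, among them XBP1, IRF4, PRDM1, TNFRSF17, JCHAIN and MZB1. The defining surface markers SDC1 and CD38, and FKBP11, were listed at 0 in all 4. Of the B cell markers 4 of 8 had such peaks, with MS4A1 and PAX5 among those at 0, and of the T and NK cell markers 2 of 5, CD2 and CD3E. None of 4 myeloid and none of 4 other tissue markers did.

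H3K27ac split the chromosome 19 ZNF genes into a group with a peak and a group without, and with any overlap counted as a peak most genes fell on the same side in all 4 conditions. A peak touched the window of 1 kb on either side of a gene end at 126 genes in TKO and 120 in WT, and 124 in D1240A and 121 in F1295A. The same 116 genes, or 47.2%, had a peak in all 4 lists, against 55.8% of all genes. A further 117 genes, or 47.6%, had a peak in no list, against 38.8% of all genes, and 13 were in between. When 50% of the window had to lie under peaks, 67 genes had H3K27ac in all 4 lists (44% of all genes did) and 154 in none (49% of all genes). ZNF genes of other chromosomes had a peak at an end more often, at 71.5% in TKO and 71.1% in WT, where the chromosome 19 ZNF genes had 51.2% and 48.8%. Counting every annotated RefSeq promoter start as well, 135 chromosome 19 ZNF genes (54.9%) were acetylated in all 4 lists, against 58.2% of all genes. A peak was listed in none for 96 (39%), against 36.5% of all genes. With promoters counted the family thus lay closer to all genes than at the gene ends alone.

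The highest H3K27ac peaks of the family lay at ZNF460, ZNF274, ZNF524, ZNF566 and ZNF576. ZNF460 had a peak of 343 fragments in TKO [308 to 381], 308 in WT [275 to 344], 301 in D1240A [268 to 337] and 274 in F1295A [243 to 308]. Its fold enrichment, which is the fragment count at the summit plus 1 over a constant of the list, was 51.6, 46.7, 48.5 and 43.7 in the same order. ZNF274, a KRAB zinc finger protein known to bind the 3-prime ends of other zinc finger genes and recruit SETDB1, followed with 43.1, 42.3, 48.0 and 42.3. ZNF524 had 43.2, 41.0, 45.8 and 37.5. ZNF566 had 38.3, 34.6, 39.5 and 29.3, and ZNF576 had 36.5, 33.7, 36.9 and 31.5. All 5 were high in every list. ZNF274, ZNF524, ZNF566 and ZNF576 were highest in D1240A and ZNF460 in TKO, and all 5 were lowest in F1295A, ZNF274 by less than the rounding shown.

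Among the 117 genes without H3K27ac at an end were several with known roles as repressors of retroelements. ZNF91, which represses SVA elements, and ZNF93, which represses L1 elements, had no H3K27ac at an end in any list. Inside ZNF91 a weak peak lay about 16 kb from the start, with 22 fragments in TKO, 20 in WT and 22 in D1240A, and none was listed in F1295A. ZNF649 and ZNF382 had none at the ends or in the body. ZNF331, an imprinted gene, had none either, also when its other annotated promoters were counted. ZNF850 was acetylated, with a fold enrichment of 9.45 in TKO and 6.95 in WT, and 8.19 in D1240A and 5.56 in F1295A. Of the 117 genes, 52 had no peak of any mark in the body or at the ends in any list. H3K27me3 lay in the body of 49 of the 117 in at least 1 list, H3K36me2 in 32 and H3K27ac in 28. The median length of the genes without H3K27ac was 29583 bp, against 21735.5 bp for the genes acetylated in all 4 lists. Whether sequence fragments that match several of these similar genes were kept is not given in the sources used here, so a missing peak in a duplicated stretch is uncertain.

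The 9 clusters, each of at least 5 chromosome 19 ZNF genes with neighbours at most 1 Mb apart, hold 235 of the 246 genes. They differed widely in how many of their genes carried H3K27ac. Cluster 4, from ZNF101 to ZNF254 (chr19:19668153-24129968), had 7 of 37 genes acetylated in all 4 lists, or 18.9%, and 30 in none. Cluster 9, from ZNF628 to ZNF446 (chr19:55476617-58489533), had 42 of 59, or 71.2%. Cluster 2 had 10 of 15, cluster 5 had 3 of 5, cluster 3 had 12 of 25, cluster 7 had 10 of 24, cluster 8 had 16 of 39 and cluster 6 had 9 of 26. Cluster 1, from ZNF554 to ZNF77, had 0 of 5. Of the 11 genes outside clusters 7 were acetylated in all 4 lists. These counts are of gene ends, and with annotated promoter starts counted as well cluster 6 rose to 16 of 26, with 9 in none. Cluster 2 then had 11, cluster 3 had 13, cluster 7 had 12, cluster 8 had 17 and cluster 9 had 48. Outside clusters it was 8, and clusters 1, 4 and 5 kept their counts. The difference between clusters was not tested, since genes of a cluster are neighbours and not replicates.

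**Figure D1:**
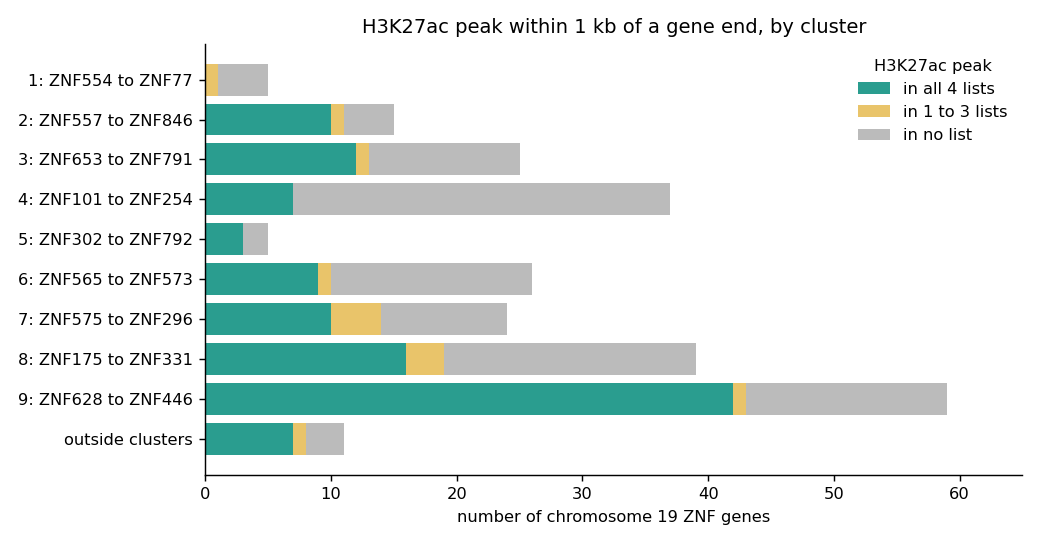
Number of chromosome 19 ZNF genes (x axis) in each cluster (y axis) with an H3K27ac peak within 1 kb of a gene end in all 4 lists, in 1 to 3 lists or in no list. Cluster 4 has 30 of 37 genes without a peak, and cluster 9 has 42 of 59 genes with a peak in all 4 lists. Annotated promoter starts away from the gene ends are not counted.

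The acetylated genes of the mostly bare cluster 4 were ZNF101, ZNF14, ZNF253, ZNF430, ZNF429, ZNF724 and ZNF675. ZNF101, at its edge, was the highest, with 36.2 in TKO and 26.9 in WT, and 38.9 in D1240A and 30.7 in F1295A. ZNF675 had 17.0, 15.9, 19.3 and 15.1, and ZNF429 only 4.65, 3.33, 4.66 and 3.18. The highest peak of the other clusters belonged to ZNF554 in cluster 1, ZNF414 in cluster 2, ZNF700 in cluster 3, ZNF302 in cluster 5, ZNF566 in cluster 6, ZNF576 in cluster 7, ZNF766 in cluster 8 and ZNF460 in cluster 9. Their means over the 4 lists were 2.62, 26.2, 28.1, 23.2, 35.4, 34.7, 34.0 and 47.6. Of the genes other than ZNF genes inside the clusters, 27 of 54 in cluster 2, 14 of 27 in cluster 7, 4 of 16 in cluster 8 and 15 of 45 in cluster 9 were acetylated in all 4 lists, with 2 of 4 in clusters 3 and 6 each and 0 of 2 in cluster 4.

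The promoters of the clusters differ in sequence, and 6 of them are shown to let acetylated and bare genes be compared. Each runs from 250 bases before to 50 bases after an annotated start, 5′ to 3′ on the gene's strand, from RefSeq GRCh38 patch 14, with CG dinucleotides in capitals. ZNF460 (chr19:57279732-57280031, plus strand), ZNF274 (chr19:58182811-58183110, plus strand) and ZNF101 (chr19:19668589-19668888, plus strand) had H3K27ac in all 4 lists. The start used for ZNF101 lies inside the gene, whose own 5-prime end is at 19668153; for the other 5 it is the gene's 5-prime end. ZNF91 (chr19:23395422-23395721, minus strand), ZNF93 (chr19:19900696-19900995, plus strand) and ZNF382 (chr19:36605063-36605362, plus strand) had it in none.
ZNF460: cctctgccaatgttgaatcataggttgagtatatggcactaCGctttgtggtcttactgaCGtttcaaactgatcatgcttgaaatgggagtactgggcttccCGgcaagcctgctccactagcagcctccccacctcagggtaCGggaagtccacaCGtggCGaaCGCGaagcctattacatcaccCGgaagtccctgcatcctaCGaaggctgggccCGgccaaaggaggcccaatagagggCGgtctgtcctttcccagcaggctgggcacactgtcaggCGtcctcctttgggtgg
ZNF274: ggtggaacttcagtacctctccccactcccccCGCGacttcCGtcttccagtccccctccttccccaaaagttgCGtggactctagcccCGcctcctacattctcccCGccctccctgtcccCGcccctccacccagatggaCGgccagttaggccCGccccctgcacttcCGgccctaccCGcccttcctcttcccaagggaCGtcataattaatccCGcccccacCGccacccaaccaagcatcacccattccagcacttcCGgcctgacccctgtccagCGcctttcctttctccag
ZNF101: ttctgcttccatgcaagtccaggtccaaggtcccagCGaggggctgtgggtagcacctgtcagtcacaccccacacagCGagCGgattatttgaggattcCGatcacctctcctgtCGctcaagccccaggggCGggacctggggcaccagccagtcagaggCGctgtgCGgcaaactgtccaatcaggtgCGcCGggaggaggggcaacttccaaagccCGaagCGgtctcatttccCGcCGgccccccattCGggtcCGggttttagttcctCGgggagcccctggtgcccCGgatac
ZNF91: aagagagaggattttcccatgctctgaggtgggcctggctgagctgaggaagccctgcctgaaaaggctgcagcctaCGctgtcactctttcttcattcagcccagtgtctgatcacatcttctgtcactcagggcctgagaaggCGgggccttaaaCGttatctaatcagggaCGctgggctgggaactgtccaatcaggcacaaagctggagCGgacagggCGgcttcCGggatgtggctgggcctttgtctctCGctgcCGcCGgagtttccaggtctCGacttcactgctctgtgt
ZNF93: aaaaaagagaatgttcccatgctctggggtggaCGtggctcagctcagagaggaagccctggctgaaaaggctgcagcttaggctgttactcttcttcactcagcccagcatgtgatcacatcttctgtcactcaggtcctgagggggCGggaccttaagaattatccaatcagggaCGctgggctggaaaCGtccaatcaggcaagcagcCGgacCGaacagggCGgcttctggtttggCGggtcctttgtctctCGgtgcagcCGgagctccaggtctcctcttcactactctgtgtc
ZNF382: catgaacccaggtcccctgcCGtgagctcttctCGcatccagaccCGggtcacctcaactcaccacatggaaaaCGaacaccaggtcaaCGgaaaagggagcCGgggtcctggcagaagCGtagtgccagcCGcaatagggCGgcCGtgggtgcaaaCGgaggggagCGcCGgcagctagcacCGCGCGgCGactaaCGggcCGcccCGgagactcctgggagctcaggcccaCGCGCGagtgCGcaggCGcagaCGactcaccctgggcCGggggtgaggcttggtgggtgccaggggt

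These promoters hold 13 CG dinucleotides in ZNF460, 16 in ZNF274, 18 in ZNF101, 11 in ZNF91, 10 in ZNF93 and 27 in ZNF382. ZNF382 had many CG and no peak. ZNF460 has another annotated promoter (chr19:57280235-57280534) with 27 CG under the same peak, so its peak cannot be assigned to either of them. Over the 268 promoters of the 216 genes that matched the sequence table the median was 20 CG, against 21 for all genes. Promoters acetylated in all 4 lists had a median of 22 and those acetylated in none 16. Over all genes the same medians were 27 and 8, a wider gap. At 10 to 19 CG, 40 of 100 promoters of chromosome 19 ZNF genes were acetylated in all 4 lists, against 55.2% of all promoters with that number. At 20 to 29 CG it was 64.5% against 75.9%, and at 0 to 9 CG 17.4% against 17.8%.

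Cluster 4 had the poorest promoters, with a median of 10 CG, where the other clusters had medians of 16.5 to 26. Its promoters also share a stretch of letters, which can be read in the sequences of ZNF101, ZNF91 and ZNF93 as tccaatcagg. A search for the 10 bases held by most promoters of cluster 4, on both strands, returned these 10 (cctgattgga on the other strand), in 26 of 30 promoters. They contain CCAAT, the letters of the CCAAT box, one of the motifs counted below. The same 10 bases stood in 17 of 238 promoters of the other chromosome 19 ZNF genes, or 7.14%, in 5.56% of promoters of ZNF genes elsewhere and in 90 of 22132 promoters of all genes, or 0.407%. Of the 26 promoters in cluster 4 that hold them, 6 were acetylated in all 4 lists and 20 in none. The stretch was found by searching these promoters, so its high share in them is a description.

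Of the 3 motifs counted on both strands, CCAAT stood in 50% of promoters of the chromosome 19 ZNF genes and in 34.6% of all promoters of the same length. It stood in 96.7% of the promoters of cluster 4, 88.5% of cluster 3, 100% of the 6 of cluster 1 and 58.3% of cluster 9, against 20.8% in cluster 7. GGGCGG, the GC box, stood in 64.9% against 56.3% of all, and TATAAA, the TATA box, in 2.61% against 9.46%. CCAAT stood in 47.5% of the family's promoters acetylated in all 4 lists and in 53.5% of those acetylated in none.

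**Figure D2:**
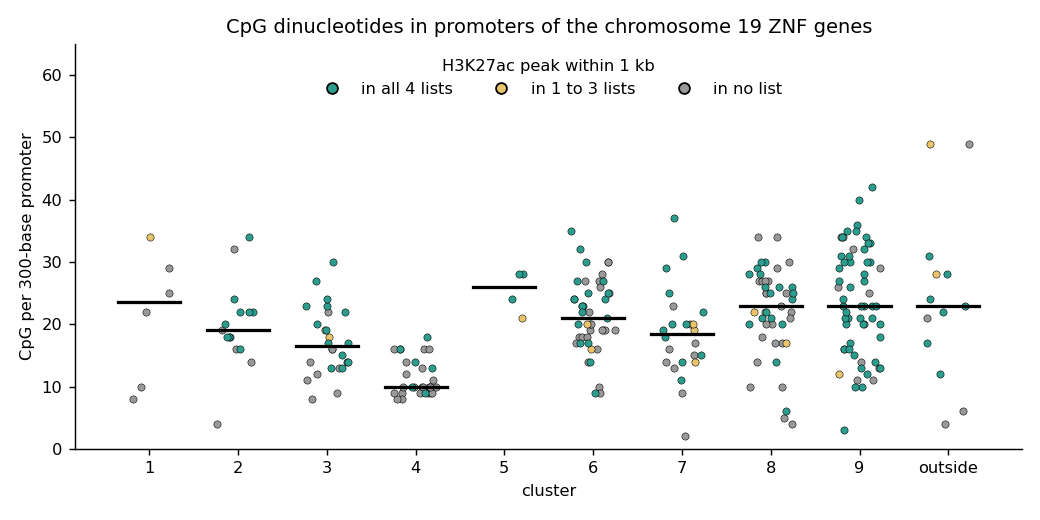
CG dinucleotides (CpG) in each 300-base promoter of the chromosome 19 ZNF genes (y axis) by cluster (x axis), coloured by the number of lists with an H3K27ac peak within 1 kb of that promoter's start; bars are medians. Cluster 4 lies lowest, with a median of 10, and the ranges of promoters with a peak in all 4 lists and in none overlap in clusters 2, 3, 4, 6, 7, 8 and 9.

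Only 13 of the chromosome 19 ZNF genes had H3K27ac at an end in some lists and not in others, and all but ZNF575 had at most 26 fragments there in any list. ZNF230 was the 1 gene listed in WT and not in TKO, where 1.53% of all genes were. In WT 7 genes lacked a peak that TKO had (ZNF554, ZNF358, ZNF440, ZNF575, ZNF284, ZNF350 and ZNF530), against 1.82% of all genes. D1240A had 5 genes that WT lacked (ZNF554, ZNF440, ZNF607, ZNF574 and ZNF575), against 2.17% of all genes, and lacked ZNF28, against 1.02%. F1295A had 3 genes that WT lacked (ZNF554, ZNF440 and ZNF575), against 1.81%, and lacked ZNF222 and ZNF615, against 1.12%. The shares of the family, between 1 and 7 of 246, lie near these backgrounds, and WT enters every comparison. When 50% of the window had to lie under peaks, the counts were larger: 16 genes (6.5%) lacked it in WT against TKO, where 3.11% of all genes did, and 17 (6.91%) and 14 (5.69%) had it in D1240A and F1295A but not in WT, where 3.59% and 3.18% of all genes did.

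ZNF554 had 20 fragments in TKO [12.2 to 30.9], none listed in WT, 20 in D1240A and 24 in F1295A. ZNF440 had 26, none listed, 24 and 18 fragments in the same order. The lowest peaks of these H3K27ac lists hold 13 or 14 fragments, so both genes lie little above what the lists could show. ZNF284, ZNF350 and ZNF530 had 21, 20 and 21 fragments in TKO and were listed at 0 elsewhere. ZNF607 was listed in D1240A alone, with 22 fragments, and ZNF574 likewise, with 14 at its end, although an internal peak of 174 to 209 fragments was in all 4 lists. ZNF575 had 187 fragments in TKO, 157 in D1240A and 141 in F1295A. Its WT peak of 136 fragments (chr19:43531981-43533974) began just beyond the end window, so the gene was acetylated in all 4 lists. ZNF358 is also set by a peak at the edge of its window. Without peaks that overlap in the other list, 5 genes of the 7 remained for WT against TKO, 4 of 5 for D1240A and 2 of 3 for F1295A.

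Where both lists had a peak, its height at the chromosome 19 ZNF genes was slightly lower in WT than in the other conditions, as at all genes. The median ratio of fold enrichment was 0.873 in WT against TKO over 119 genes, with 102 below 1, and 0.925 over all genes. It was 1.21 in D1240A against WT, with 1.17 over all genes, and 1.06 in F1295A against WT, with 1.05 over all genes. Past a ratio of 1.5 in either direction, 10 genes were weaker in WT than in TKO and 0 stronger, against 5.08% and 1.39% of all genes. In D1240A 9 were stronger than in WT and 0 weaker, against 8.26% and 0.736% of all genes. In F1295A 4 were stronger and 0 weaker, against 3.53% and 0.728%.

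ZNF44, in cluster 3, was the clearest of these genes, with a low value in WT alone. Its peak had 83 fragments in TKO [66.1 to 103], 50 in WT [37.1 to 65.9], 90 in D1240A [72.4 to 111] and 80 in F1295A [63.4 to 99.6]. The ratios were 0.612 in WT against TKO, 1.90 in D1240A against WT and 1.67 in F1295A against WT. ZNF667 had 47, 26, 46 and 28 fragments, so that F1295A lay with WT and not with TKO. ZNF497 had 61, 47, 87 and 71 fragments, with ratios of 1.95 in D1240A and 1.58 in F1295A against WT. ZNF419 and ZNF160 had ratios of 0.582 and 0.587 in WT against TKO, and ZNF470 had a fold of 5.44 in WT and 9.79 in D1240A. ZNF526 had the widest ratios, 0.481, 2.04 and 1.82, but its region was 1 peak in TKO and was listed as separate peaks in WT. With peaks less than 1 kb apart merged, ZNF526 was no longer past 1.5, and 9 genes were weaker in WT than in TKO (5.03% of all genes) and 0 stronger (1.61%), 8 were stronger in D1240A than in WT (8.18%) and 0 weaker (0.887%), and 3 were stronger in F1295A than in WT (3.73%) and 0 weaker (0.941%). The widest ratios towards WT stayed below 1.5, with 1.32 for ZNF471 and 1.22 for ZNF571 in WT against TKO.

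**Figure D3:**
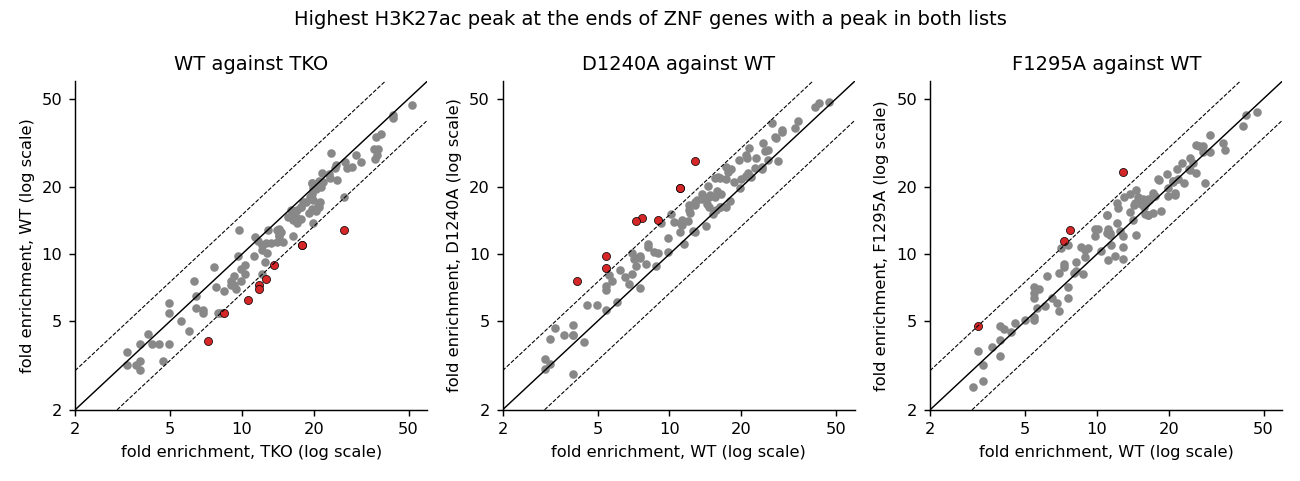
Fold enrichment of the highest H3K27ac peak at the ends of each chromosome 19 ZNF gene with a peak in both lists, on log scales, for WT against TKO and for both mutants against WT. The solid line marks equal values and the dashed lines a ratio of 1.5; the 10, 9 and 4 genes past them are in red.

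The H3K27ac peaks of the chromosome 19 ZNF genes were narrow, lower than at other chromosome 19 genes, and sat at the gene start. Their median width was 1441.5 bp in TKO and 1235 in WT, and 1421.5 in D1240A and 1345 in F1295A, against 2233.5, 2017, 2237 and 2303 bp at the other genes of chromosome 19. Their median fold enrichment was 14.2 in TKO and 12.4 in WT, against 19.8 and 17.2. Among genes of known strand a peak touched the start in 51.9% of the family in TKO and the stop in 4.17%, against 56.4% and 23.2% of other chromosome 19 genes. The gap at the stop was smaller against all genes, with 14.15%, and against ZNF genes of other chromosomes, with 8.41%. At 200 bases past the start 47.2% to 49.5% of the family lay under a peak in the 4 lists. At 2000 bases past it the share was 5.56% in TKO, against 18.6% of the other genes. In TKO 22 of the 126 acetylated genes shared their highest end peak with the end of another protein-coding gene, 9 of them with another gene of the family.

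**Figure D4:**
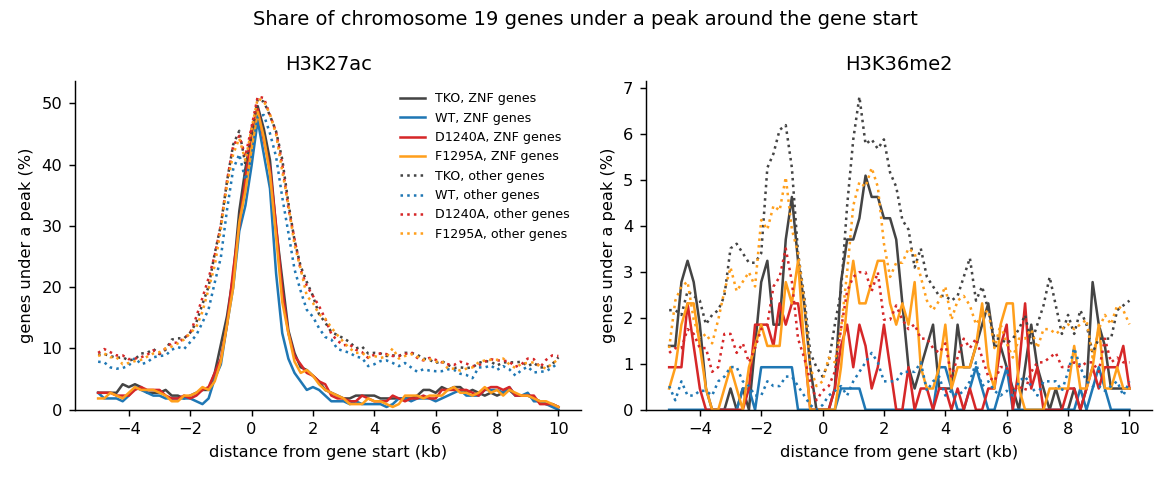
Share of chromosome 19 genes under a peak (y axis, percent) by distance from the gene start (x axis, kb) for H3K27ac and H3K36me2 in the 4 lists; solid lines are 216 ZNF genes of known strand and dotted lines the other genes. The share of genes under H3K27ac reaches a similar maximum in both groups but falls off nearer to the start in ZNF genes. The share under H3K36me2 is 0 at the start of the ZNF genes in all 4 lists. Peak height is not shown.

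H3K36me2 peaks were sparse in the bodies of the chromosome 19 ZNF genes in every list, and sparsest in WT. The lists were called without a control and each has its own constant. Coverage by peaks therefore does not rank the amount of the mark between conditions. The mean share of a body under peaks was 1.37% in TKO and 0.270% in WT, and 0.586% in D1240A and 1.22% in F1295A. Over all genes of at least 2 kb, the means were 4.56%, 2.17%, 3.13% and 4.37% in the same order. At least 1 peak lay in the body of 28.9% of the family in TKO and 11.4% in WT, and 23.2% in D1240A and 26.8% in F1295A, against 44.5%, 28.1%, 37.5% and 42.3% of all genes. Among genes other than ZNF genes inside the clusters it was 28.4%, 19.15%, 24.8% and 29.8%, so outside WT the family was close to its neighbours. ZNF genes of other chromosomes had 43.9%, 22.9%, 37.0% and 41.6%. No gene of the family had 50% of its body under H3K36me2 in any list, and few of the 18611 genes did: 456 in TKO and 293 in WT, and 364 in D1240A and 487 in F1295A. In WT 51 genes lacked H3K36me2 that TKO had in the body and 8 had it where TKO lacked it, against 19.7% and 3.26% of all genes. D1240A had it in 37 genes where WT lacked it and lacked it in 8, against 12.9% and 3.53%. F1295A had it in 45 and lacked it in 7, against 17% and 2.84%. These shares of 246 genes were close to those of all genes, in lists whose peak numbers differ in the same direction.

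A difference of 25 percentage points was reached by a single gene, ZNF551 in F1295A against WT, where 2.19% of all genes were higher. ZNF551 had 7.58% of its body under H3K36me2 in TKO and 0 in WT, and 8.84% in D1240A and 36.4% in F1295A. Its 4 peaks in F1295A hold 17 to 21 fragments, and the lowest peaks of that list hold 14. The call was lost with stricter peaks (a difference of 0 points at a −log10 q of at least 5) and with lists of equal covered length (5.80 points). For WT against TKO 0 genes were lower by 25 points, against 2.47% of all genes, and 0 higher, against 0.167%. For D1240A against WT 0 were higher, against 0.876%, and 0 lower, against 0.145%. In F1295A 0 were lower than in WT, against 0.0484%. The highest share of any body in the family was 24.6% in TKO, 8.67% in WT and 12.6% in D1240A. A difference of 25 points was therefore out of reach in these directions, and the counts of 0 do not show that the genes were stable.

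At 10 points, 8 genes were lower in WT than in TKO (ZNF780B, ZNF576, ZNF180, ZNF865, ZNF581, ZNF772, ZNF776 and ZNF587B), against 7.71% of all genes, and 0 higher, against 0.586%. ZNF780B had 14.3% in TKO and 1.89% in WT, and 12.6% in D1240A and 15.6% in F1295A, so it was low in WT alone. ZNF576 had 24.6%, 0, 0 and 2.56%, and ZNF776 had 24.1%, 0, 6.66% and 0, both high in TKO alone. ZNF865 had 14.1%, 0, 1.83% and 17.7%, high in TKO and F1295A. D1240A was higher than WT by 10 points at ZNF780B, against 3.14% of all genes. F1295A was higher at 6 genes (ZNF780B, ZNF780A, ZNF224, ZNF865, ZNF551 and ZNF586), against 6.46%, and lower at 0, against 0.22%; D1240A was lower at 0, against 0.639%. The peaks of ZNF780B, ZNF865 and ZNF576 held 15 to 22 fragments each, so single peaks near the lowest that these lists hold set the percentages. ZNF444 was high in all 4 lists, with 8.19%, 8.67%, 8.63% and 16.8%.

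A larger share of the acetylated genes than of the bare genes had H3K36me2 in each list, with the smallest gap in WT, as over all genes. Of the 116 genes acetylated in all 4 lists, 42.2% had H3K36me2 in the body in TKO and 12.9% in WT, and 34.5% in D1240A and 37.9% in F1295A. Of the 117 genes without H3K27ac at an end, it was 17.1%, 10.3%, 13.7% and 16.2%. Over all genes acetylated in all 4 lists the shares were 57.9%, 30.8%, 46.3% and 51.9%, and over all genes without H3K27ac 23.6%, 22.2%, 23.1% and 26.3%. By cluster, genes with H3K36me2 in the body in TKO numbered 29 of 59 in cluster 9, 10 of 26 in cluster 6, 10 of 24 in cluster 7 and 2 of 37 in cluster 4. In WT cluster 9 had 6 and cluster 4 had 0, in D1240A 20 and 3, and in F1295A 32 and 0.

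H3K27me3 peaks were sparse as well, and here the share of genes with a peak was larger in genes without H3K27ac in each list, as over all genes. The mean share of a body under H3K27me3 was 0.442% in TKO and 0.472% in WT, and 0.226% in D1240A and 0.213% in F1295A, where all genes had 1.98% in TKO, 2.01% in WT and 1.47% in D1240A. Of the 117 genes without H3K27ac at an end, 22.2% had H3K27me3 in the body in TKO and 23.9% in WT, and 16.2% in D1240A and 15.4% in F1295A. Of the 116 genes acetylated in all 4 lists it was 15.5%, 12.1%, 8.62% and 6.03%. Over all genes the shares were 28.6%, 27.6%, 23.8% and 23.7% without H3K27ac and 21.9%, 18.5%, 17.5% and 16.8% with it in all 4 lists. The mean share of the body went the other way over all genes, with 0.962%, 1.17%, 0.698% and 0.773% without H3K27ac and 2.26%, 2.15%, 1.70% and 1.69% with it. In the family it was 0.465%, 0.471%, 0.255% and 0.300% without and 0.372%, 0.238%, 0.163% and 0.104% with it. The family's genes without H3K27ac were also longer at the median, and the part of length was not tested. Counting any peak in the body, WT had H3K27me3 in 24 genes where TKO lacked it and lacked it in 24, against 4.41% and 6.86% of all genes. D1240A had it in 13 where WT lacked it and lacked it in 29, against 4.06% and 6.23%. F1295A had it in 11 and lacked it in 31, against 3.77% and 6.45%. In both mutants more genes lacked than had it, and this direction was the same over all genes. As shares of the 246 genes, these counts of peaks had or lacked were larger than the shares of all genes in every comparison. The number of genes with a peak was nevertheless the same in TKO and WT, at 47, with 31 in D1240A and 27 in F1295A. The lowest H3K27me3 peaks hold 11 fragments in TKO, 12 in WT and 10 in each mutant, and how many of these peaks lie near that floor was not counted. The D1240A and F1295A lists of this mark rest on 33219802 and 31097592 fragments and the TKO and WT lists on 41788534 and 44812488. The part of depth in the lower mutant values was not tested.

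**Figure D5:**
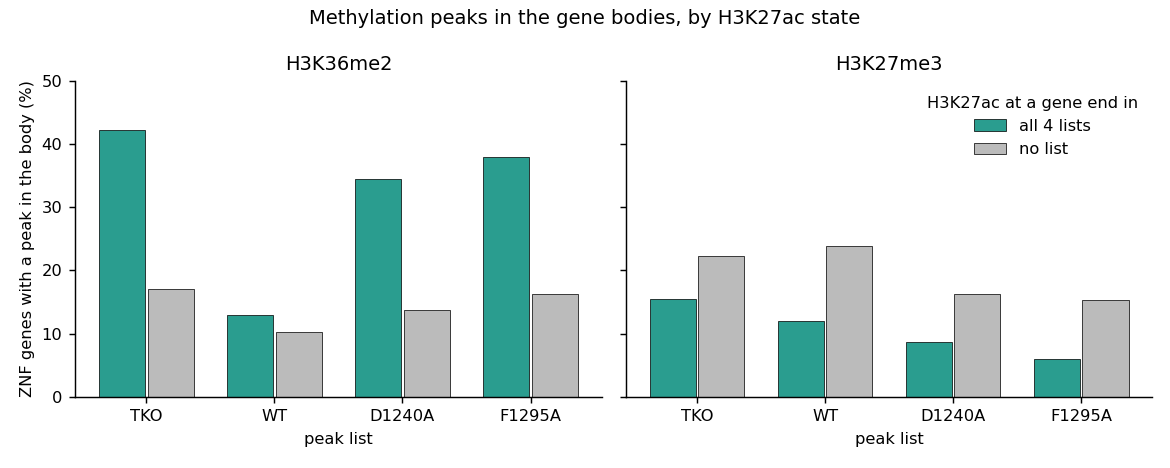
Percent of chromosome 19 ZNF genes with an H3K36me2 peak or an H3K27me3 peak in the body (y axis) in each list (x axis), for the 116 genes with H3K27ac at an end in all 4 lists and the 117 with it in no list. H3K36me2 runs from 42.2% in TKO to 12.9% in WT in the acetylated genes, and H3K27me3 is higher in the genes without H3K27ac in all 4 lists.

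No gene of the family differed by 25 points of H3K27me3, higher or lower, in any comparison. Of all genes 0.285% were higher and 0.199% lower in WT against TKO, 0.0376% and 0.639% in D1240A against WT, and 0.0537% and 0.5% in F1295A against WT. At 10 points 1 gene was called, ZNF358, with 0 in TKO and 21.3% in WT, and 4.66% in D1240A and 0 in F1295A. It was higher in WT than in TKO, as 1.11% of all genes were, and lower in D1240A and in F1295A than in WT, as 1.85% and 1.96% were. In the other directions 0 genes were called, against 0.956% of all genes lower in WT than in TKO, 0.285% higher in D1240A and 0.306% higher in F1295A than in WT. In ZNF358, 2 peaks in WT held 15 and 14 fragments, at a lowest peak of 12 in that list. ZNF418 had 4.37%, 5.09%, 2.56% and 3.37% in the 4 lists. ZNF835 had 3.77%, 3.32%, 0 and 6.92%.

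Within the 216 genes of known strand, H3K27ac lay in the 5-prime 50% of the body, H3K36me2 in TKO and F1295A leaned the same way, and H3K27me3 did not lean far to either side. The H3K27ac share of the 5-prime 50% exceeded that of the 3-prime 50% by 6.60 points in TKO and 5.76 in WT, and 6.64 in D1240A and 6.54 in F1295A. Over all genes it was 9.10, 8.47, 8.96 and 8.79 points, a wider lean. In TKO it was higher on the 5-prime side in 125 genes and on the 3-prime side in 10. ZNF581, ZNF574 and ZNF799 were the main exceptions, with 87.1%, 39.5% and 13.7% of the 3-prime 50% under H3K27ac in TKO, against 44.5%, 6.10% and 0 of the 5-prime 50%. ZNF574 and ZNF799 each have another annotated promoter start, away from the gene ends, within 1 kb of an H3K27ac peak in all 4 lists. For H3K36me2 the difference was 1.30 points in TKO and -0.21 in WT, and -0.13 in D1240A and 0.66 in F1295A. Over all genes it was 1.20, 0.18, 0.59 and 0.69 points, so TKO and F1295A lay near the background. In TKO 46 genes were higher on the 5-prime side and 22 on the 3-prime side, in WT 9 and 18, in D1240A 24 and 28, and in F1295A 36 and 25. With the first and last 25% of the body, D1240A turned to 0.25 points. For H3K27me3 the differences were between -0.12 and 0.11 points.

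The genes with the widest H3K36me2 difference towards the start were ZNF551, ZNF772, ZNF576, ZNF780A and ZNF776. In ZNF776 48.3% of the 5-prime 50% was under H3K36me2 in TKO, and in ZNF576 49.1%, against 0 on the 3-prime side in both. Towards the stop they were ZNF444, ZNF574, ZNF573, ZNF667 and ZNF331. ZNF444 had 12.7% of its 3-prime 50% under H3K36me2 in TKO and 17.3% in WT, and 17.3% in D1240A and 31.1% in F1295A. ZNF573, ZNF444, ZNF667 and ZNF331 were also among the 5 widest towards the stop for H3K27me3, and ZNF418 was the widest.

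In some genes the peaks of both methylation marks lay at the same place in all 4 conditions. Stretches under all 8 lists of H3K36me2 and H3K27me3 lay in 5 genes of the family, or 2.03%, against 7.40% of all genes. They were in ZNF529, ZNF573 (chr19:37751014-37752086), ZNF404 (chr19:43877945-43878273), ZNF331 (chr19:53559033-53560289) and ZNF583. In ZNF573 the H3K36me2 peaks held 187, 254, 189 and 134 fragments in TKO, WT, D1240A and F1295A, and the H3K27me3 peaks 262, 227, 286 and 274. H3K27ac peaks of 41, 36, 27 and 47 fragments lay at the same place. ZNF573 and ZNF583 were the 2 genes of the family (0.813%) with bases under peaks of all 12 lists, 505 and 79 bp, against 2.77% of all genes. In ZNF331 the H3K36me2 peaks held 32, 36, 36 and 37 fragments and the H3K27me3 peaks 31, 42, 25 and 25. The input libraries were not analysed here, so whether these places are also high without an antibody was not tested.

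The whole spans of the 9 clusters, 16.91 Mb together, were poorer in all 3 marks than the other 41.56 Mb of chromosome 19. H3K36me2 covered 1.30% of the spans in TKO and 0.618% in WT, and 0.892% in D1240A and 1.21% in F1295A, against 5.56% to 6.41% of the rest. H3K27me3 covered 0.717% to 0.929% against 6.11% to 6.65%, and H3K27ac 2.79% to 3.28% against 8.81% to 10.1%. The gap was smaller without the blocks of 1 Mb in which all 12 lists take up 10% or more. The spans then had 0.623% to 1.31% H3K36me2 against 0.892% to 2.23% of the rest, 0.722% to 0.936% H3K27me3 against 1.22% to 1.63%, and 2.81% to 3.31% H3K27ac against 6.33% to 7.48%. Of the chromosome 19 ZNF genes 1, ZNF254, lies in 1 of these blocks.

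The partners through which KRAB zinc finger proteins silence DNA were looked up as a list of 23 genes. H3K27ac lay at the ends of 22 of the 23 in all 4 lists, where 55.8% of all genes had it, UHRF1, a reader of DNA methylation, being listed at 0. TRIM28, the co-repressor that binds the KRAB domain, had a fold enrichment of 19.2 in TKO and 16.3 in WT, and 21.0 in D1240A and 17.2 in F1295A. In H3K36me2, 1 of the 23 was lower by 25 points in WT than in TKO and 1 was higher in F1295A than in WT, in both cases CBX5, which encodes HP1 alpha; of all genes 2.47% and 2.19% were. CBX5 had 84.9% of its body under H3K36me2 in TKO and 33.3% in WT, and 54.7% in D1240A and 78.2% in F1295A. SETDB1, the H3K9 methyltransferase that TRIM28 recruits, had 100%, 79.5%, 98.6% and 100%, in a block covered by all 12 lists. DNMT3B, a DNA methyltransferase, had 17.2%, 0.600%, 7.92% and 16.3%. None of the 23 differed by 25 points in H3K27me3, where the highest share of a body was 16.8%, in SETDB1 in TKO.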

How the data were processed

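H3K36me2, H3K27me3 and H3K27ac were mapped in 4 conditions with 2 replicates each; the 24 immunoprecipitates are used through 12 peak lists, and the 4 inputs were not analysed here. Per the submitters' processing notes, reads were handled with Trimmomatic 0.36, FastQC 0.11.4 and Bowtie2 2.4.5 on GRCh38. Per the file headers, MACS2 2.2.7.1 called peaks on both replicates pooled, with paired fragments, no control, no local background, 1 fragment kept per position and a q limit of 0.05. The deposited pileup of each peak is a signal, the fragment coverage at its summit. The deposited fold enrichment is a ratio, the pileup plus 1 over a constant of the list (3.98 to 6.87). The authors' −log10 q values were used only for filtering. These peak values are the authors'. The lists were made without a control, so whether a place is high without an antibody was not tested.

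Genes and promoter sequences come from RefSeq, GRCh38 patch 14, on chromosomes 1 to 22 and X; 153 scaffold genes were left out, and 216 of 246 genes matched a promoter row, which gives their strand. Peaks less than 1 kb apart were merged for H3K36me2 and H3K27me3 bodies. Bodies of at least 2 kb were scored by percent under peaks and called at 25 points. H3K27ac was scored within 1 kb of either gene end, with any overlap, and by its highest fold, with a limit of 1.5. The rule for named genes took, per mark and comparison, the 5 widest differences past the limit in each direction, the 5 highest means per mark, the highest gene per cluster, the 5 widest differences between body sides and in H3K27ac strength, TRIM28, SETDB1 and co-repressors past a limit, and ZNF91, ZNF93, ZNF274, ZNF649, ZNF850, ZNF382 and ZNF331. Genes named at 10 points, in shared stretches, in the list of acetylated genes of cluster 4, and DNMT3B, were chosen after their values were seen. The members and lists were chosen with earlier results of these data known. No test was possible with 1 list per condition and mark. Depth is given as fragments kept; intervals and floors cover counting error only. Values were computed in Python 3.11.15 with pandas 2.3.3, numpy 2.4.6 and SciPy 1.17.1, and plotted with matplotlib 3.10.9; the scripts were tested on simulated data. Alternatives were wider merging and windows, stricter peaks, equal covered length, other limits and, added after seeing the data, merged H3K27ac peaks, annotated promoter starts and cluster spans without the shared blocks.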

Additional observations from a re-analysis of the deposited data

How the results depend on the processing

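Of 145 alternative values for the main counts and differences, 114 stayed the same in size and direction, 30 moved and 1 reversed; for the results that moved or reversed, the cause was not tested. Many of the 114 were counts of 0 that stayed 0, mostly of body coverage, where the family had little coverage to change. The total therefore does not measure how firm the other results are. The number of chromosome 19 ZNF genes with H3K27ac in all 4 lists was 104 to 135 (54.1% to 58.9% of all genes). The exception was 67 when 50% of the window had to lie under peaks (44% of all genes). H3K36me2 counts rested on the limits: merging under 3 kb gave 4 genes lower in WT than in TKO (5.15% of all genes), 1 higher in D1240A (2%) and 6 higher in F1295A than in WT (4.29%), and a limit of 10 points gave 8, 1 and 6 (7.71%, 3.14% and 6.46%). The single gene higher in F1295A, ZNF551, became 0 genes with a −log10 q of at least 5 (1.48% of all genes) and 0 with equal covered length (1.06%). For H3K27me3, 1 gene was higher in WT than in TKO, 1 lower in D1240A and 1 lower in F1295A at 10 points, and 1 lower in WT than in TKO when merging under 3 kb (0.548% of all genes). For H3K27ac at gene ends, a −log10 q of at least 5 left 0 genes that WT had and TKO lacked (1.28% of all genes). Requiring 50% of the window gave 16 lacking in WT against TKO (3.11% of all genes), and 17 and 14 present in D1240A and F1295A but not in WT (3.59% and 3.18%). The count lacking in D1240A against WT was 2 with stricter peaks (0.878% of all genes) and 2 with equal covered length (1.51%). It was 0 at the gene start only (0.999%) and 2 with annotated promoters (1.08%). The count lacking in F1295A against WT was 5 with equal covered length (2.06%).

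Taking the first and last 25% of the body, the 5-prime minus 3-prime difference of H3K36me2 was 2.36 points in TKO, -0.084 in WT and 0.25 in D1240A, where the sign reversed. For H3K27me3 it was -0.21 in TKO and -0.021 in D1240A, and for H3K27ac 12.4 points in TKO and 10.3 in WT, with 12.2 for D1240A and 11.8 for F1295A. No paired analysis was possible because each list pools both replicates. For the same reason no replicate could be left out. Weak H3K36me2 peaks of the family lie near the 14 fragments below which the lists hold none, so genes listed at 0 may lie just under it.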
